A study of Mus musculus with 20 samples.

Results

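The genes described here are Rgs1 and other regulators of G-protein signalling (RGS): Rgs1, Rgs2, Rgs3, Rgs5, Rgs10, Rgs16, Rgs18 and Rgs19. They were listed by name, and Rgs1 was chosen by its higher values with anti-PD-1 alone, so its difference between anti-PD-1 and vehicle tumours is given as a description. Each gene was read from the transcript with the highest total over the 20 libraries. These are 8 of 38947 named genes, and all 8 were among the 19844 genes that passed the filter on low values (a normalised count of at least 10 in at least 5 libraries).

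The series holds RNA-seq of 20 mammary tumours in 4 treatment groups of 5, which set an aromatase inhibitor and an antibody to the checkpoint receptor PD-1 against vehicle, alone and combined. All mice were 129S6/SvEv, aged 2 to 4 months, with intact immunity, and carried tumours grown from SSM3, an oestrogen receptor-positive mouse mammary tumour line, in a mammary gland. Tumours measured about 150 mm3 when treatment started. The letrozole + anti-PD-1 group had an ovariectomy, daily subcutaneous letrozole (1 mg/kg, for 25 days, in saline with 5% ethanol), and 250 µg of anti-PD-1 in 0.08 mL into the peritoneum on days 3, 5 and 7 after surgery. The letrozole group had the same surgery and letrozole without the antibody. The anti-PD-1 group had sham surgery, daily saline with 5% ethanol, and the same antibody doses. The vehicle group had sham surgery and the daily saline with 5% ethanol. Letrozole was never given without ovariectomy, so the drug and the surgery cannot be told apart, and "letrozole" stands for both. All tumours came from a single cell line, and per the design text the 5 of each group are biological replicates.

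RGS proteins bind the active, GTP-bound alpha subunit of heterotrimeric G proteins and speed up its GTP hydrolysis, which shortens the signal of G-protein-coupled receptors. Most act on subunits of the Gi and Gq classes, and Rgs2 prefers Gq. Several are used by leukocytes, where they limit migration towards chemokines, and Rgs5 is widely used as a marker of pericytes, the cells that wrap small vessels.

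Library depth ran from 12456356 to 31301954 reads, counted on 1 transcript per gene, and tumours of the same group correlated at r = 0.894 to 0.961 across genes. Depth differed by group: anti-PD-1 replicates 1, 2, 3 and 4 held 12456356, 14555768, 15974679 and 17900331 reads, fewer than any other library. Anti-PD-1 replicate 5 held the most. A pair of libraries stood apart from the rest: anti-PD-1 replicate 1, with the fewest reads and 20969 genes detected against at least 23946 elsewhere, and vehicle replicate 3, with the highest macrophage and endothelial marker sums of all 20. Luminal epithelial markers were high in every tumour (summed normalised counts of 238067 to 330421 over 9 genes), although 1 of them, Elf5, was listed at 0 in 7 of 20 libraries. In bulk tumour RNA, fewer cells of a type and less RNA per cell cannot be told apart.

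The RGS genes partly lie side by side. In RefSeq's gene order on GRCm38.p6, Rgs2, Rgs13, Rgs1, Rgs21 and Rgs18 follow each other on chromosome 1, which also holds Rgs16 next to Rgs8 and Rgs5 next to Rgs4. Rgs3 is on chromosome 4, Rgs10 on chromosome 7 and Rgs19 on chromosome 2. RefSeq promoter windows, running from 250 bases before to 50 bases after a gene's start on GRCm38.p6, matched 6 of the 8 genes, and Rgs1 and Rgs18 were not among them. The windows of Rgs2, which was lower with letrozole, and of Rgs10, whose values were higher, are shown because letrozole blocks oestrogen synthesis and because their differences with letrozole were the largest of the 8 genes averaged over both arms, with opposite signs. Capitals mark GGTCA or its reverse complement TGACC, a single arm of an oestrogen response element, and TGACG or its reverse complement CGTCA, a single arm of a cyclic AMP response element.
Rgs2, chr1:144004100-144004399, minus strand: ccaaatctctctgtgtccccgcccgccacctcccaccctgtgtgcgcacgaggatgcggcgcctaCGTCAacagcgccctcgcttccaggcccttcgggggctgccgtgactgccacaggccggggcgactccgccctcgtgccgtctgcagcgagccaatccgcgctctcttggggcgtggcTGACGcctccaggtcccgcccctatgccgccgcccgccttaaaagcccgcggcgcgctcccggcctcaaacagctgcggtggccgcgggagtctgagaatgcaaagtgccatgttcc
Rgs10, chr7:128418123-128418422, minus strand: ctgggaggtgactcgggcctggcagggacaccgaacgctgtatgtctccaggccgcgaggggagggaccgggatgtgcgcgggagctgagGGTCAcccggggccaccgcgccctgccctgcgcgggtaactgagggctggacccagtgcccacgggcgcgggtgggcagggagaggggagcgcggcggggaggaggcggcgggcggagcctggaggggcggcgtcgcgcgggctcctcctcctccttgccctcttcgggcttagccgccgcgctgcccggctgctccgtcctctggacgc
Rgs2 held 2 matches to TGACG, which 20.8% of all 32851 promoter windows hold on either strand, and none to GGTCA. Rgs10 held 1 match to GGTCA, which 40.5% of windows hold, and none to TGACG. Neither held the full oestrogen response element, GGTCA and TGACC with any 3 bases between them, found in 0.0700% of windows, or the full cyclic AMP response element TGACGTCA, found in 1.79%. GGTCA is contained in the first of these full elements and TGACG in the second. Every window of Rgs3, Rgs5 and Rgs19 also held 1 match to GGTCA, and the window of Rgs16 held none. A match is a description of the letters in the window and not a binding site.

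Per kilobase of exon, averaged over all 20 tumours, Rgs2 stood highest at 1765 normalised counts per kb. Rgs5 followed at 509, Rgs19 at 406, Rgs10 at 288, Rgs3 at 143 and Rgs16 at 46.0 normalised counts per kb. Rgs18 and Rgs1 were lowest, at 9.52 and 7.78 normalised counts per kb. The transcript kept for Rgs1, ENSMUST00000170870, is annotated as a retained intron of 5843 bases, and the leading protein-coding transcript, ENSMUST00000189061, gave 10.8 normalised counts per kb, which puts Rgs1 above Rgs18. This order holds for the transcripts kept and depends on their lengths. Rgs1 gave 30.6 normalised counts per kb on a transcript of 1328 bases with 89.3% of the kept total. Rgs19 gave 601 on one of 779 bases (76.2%), and Rgs10 gave 509 on one of 373 bases (74.9%). Rgs1 values rested on 8 to 91 reads per library and Rgs18 values on 0 to 82, the fewest of the 8 genes. These reads may count both mates of a pair, since the read counter is not given. The SE of a log2 difference between 2 groups was largest for Rgs18 (1.21), then Rgs16 (0.53), Rgs10 (0.45) and Rgs1 (0.39).

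Rgs1, a small RGS protein of lymphocytes that dampens chemokine receptor signals, had its highest mean in anti-PD-1 tumours. Its 5 values there were 82.6, 77.5, 52.5, 114 and 49.2 normalised counts, against 22.0, 9.08, 34.6, 9.52 and 26.0 normalised counts in vehicle tumours. Every anti-PD-1 tumour lay above every vehicle tumour, which is the pattern Rgs1 was picked for. The difference was 1.95 on the log2(normalised count + 1) scale, or 3.87-fold, and is given without an interval because it chose the gene. Across all genes tested, 0.207% were higher without overlap in this comparison and 0% passed the test of anti-PD-1 against vehicle by limma and edgeR, with 2.72% at an unadjusted p under 0.05 and 5 genes called by DESeq2.

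With letrozole, the antibody groups had similar Rgs1 values. The 5 letrozole + anti-PD-1 tumours had 37.1, 50.2, 27.8, 53.1 and 43.4 normalised counts, and the 5 letrozole tumours had 35.1, 27.1, 51.7, 31.6 and 75.1. The groups overlapped over nearly their whole ranges. The log2 difference of letrozole + anti-PD-1 against letrozole, the comparison of Rgs1 that shares no tumour with its choice, was 0.01 (SE 0.39, 95% interval −0.81 to 0.82, adjusted p = 1). An exact two-sided permutation test over these 10 tumours gave p = 0.992, where the smallest p it can give is 0.00794.

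By mean level, Rgs1 was ordered as anti-PD-1 (75.2 ± 26.3 normalised counts, SD, n = 5), letrozole (44.1 ± 19.7), letrozole + anti-PD-1 (42.3 ± 10.2) and vehicle (20.2 ± 11.0). Each group overlapped the next in this order. Letrozole against vehicle gave a log2 difference of 1.16, and letrozole + anti-PD-1 against anti-PD-1 gave −0.78. Both share vehicle or anti-PD-1 tumours with the choice of Rgs1 and were not tested. The same holds for the difference between the antibody's effect with and without letrozole, which was −1.95.

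Rgs1 was also read from its other transcripts. On the protein-coding transcript, the anti-PD-1 tumours had 48.7, 77.5, 52.5, 109 and 39.0 normalised counts, against 19.2, 6.81, 32.8, 9.52 and 24.4 in vehicle tumours. The groups still did not overlap, and the log2 difference was 1.87. Over the 9 Rgs1 transcripts with at least 10% of the total of the one kept, log2 differences of anti-PD-1 against vehicle ran from 0.93 to 1.95. Those of letrozole + anti-PD-1 against letrozole ran from −1.20 to 0.01, so the transcript kept lay at the top of that range, and the lowest value came from 2 short retained-intron transcripts with 11.1% of the kept total. Transcripts of a gene share reads, so these values are not independent.

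**Figure D1:**
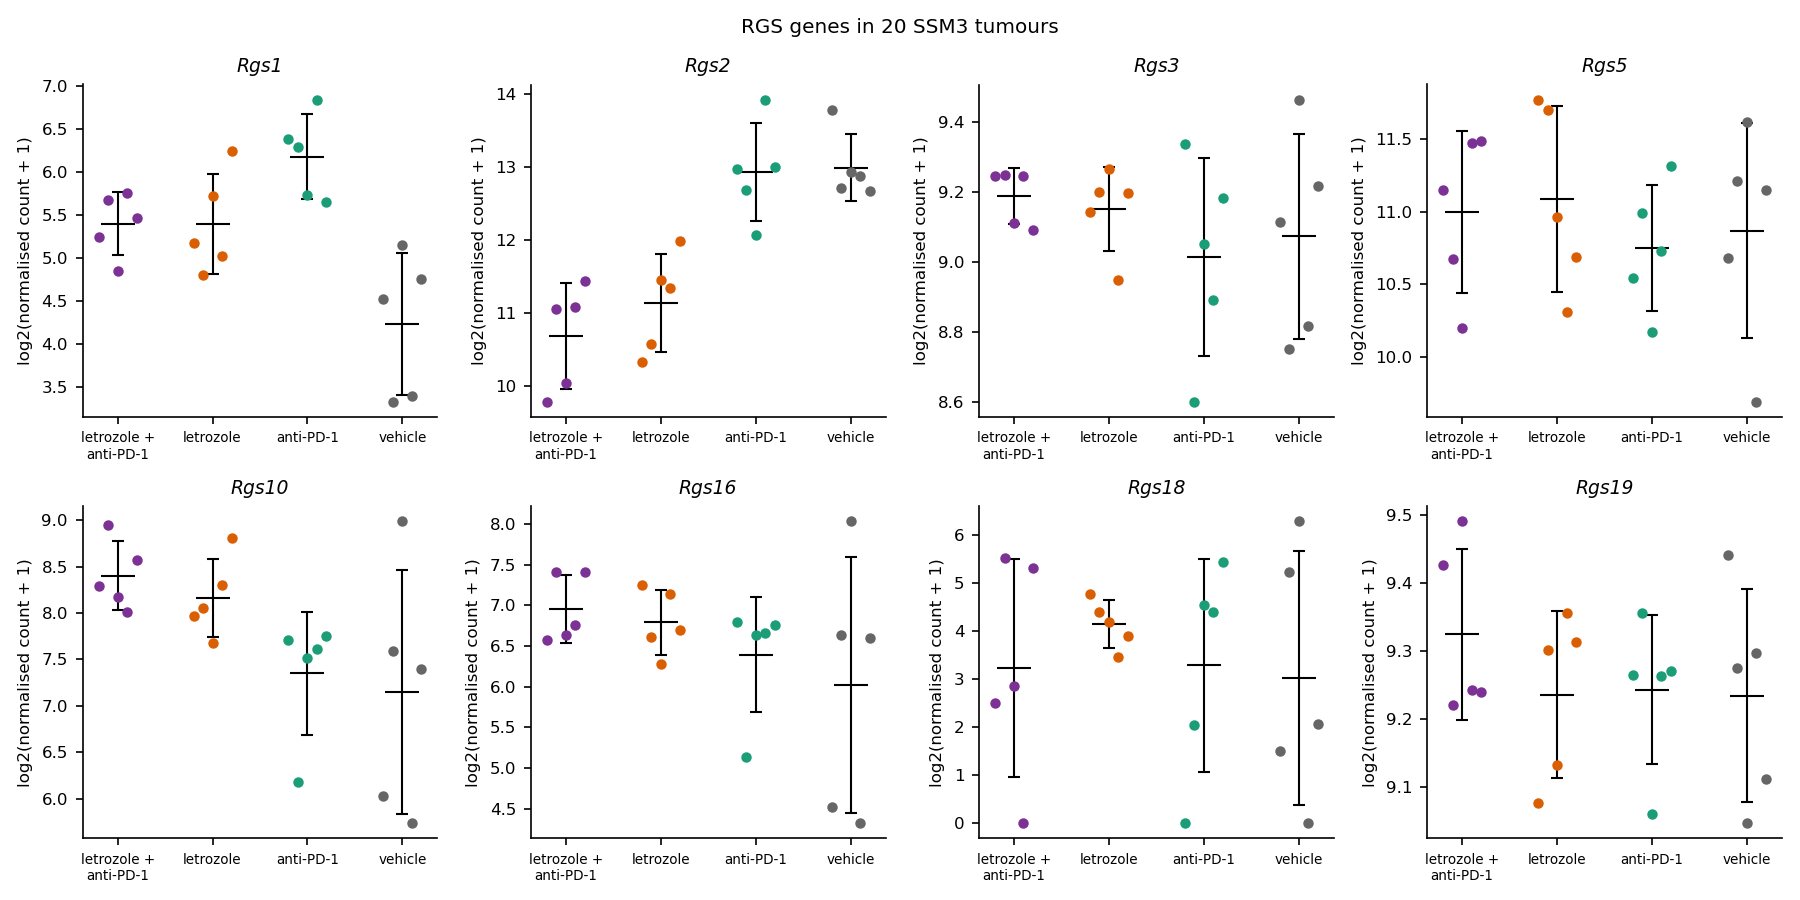
Each panel plots 1 RGS gene as log2(normalised count + 1) on the y axis, with a point per tumour for letrozole + anti-PD-1, letrozole, anti-PD-1 and vehicle from left to right, and the mean and SD of 5 tumours as bars. All 10 letrozole-treated tumours lie below the other 10 for Rgs2, and the 5 anti-PD-1 tumours lie above the 5 vehicle tumours for Rgs1.

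The plot of all 8 genes by tumour shows Rgs2 as the gene that separates the letrozole groups from the rest. Rgs2, which acts chiefly on Gq alpha subunits, was 3.63-fold lower in letrozole than in vehicle tumours and 4.77-fold lower in letrozole + anti-PD-1 than in anti-PD-1 tumours. The letrozole tumours had 1284, 1524, 2791, 2602 and 4040.2 normalised counts, against 14103, 6702, 7814, 7513 and 6507 in vehicle tumours. The highest letrozole tumour stayed below the lowest vehicle tumour. The log2 difference was −1.86 (SE 0.36, 95% interval −2.61 to −1.10, adjusted p = 0.0131 by limma). This call was lost when vehicle replicate 1, the tumour with 14103 normalised counts, was left out (−1.66, adjusted p = 0.0543).

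The antibody-treated tumours gave the same direction for Rgs2 in separate animals. The letrozole + anti-PD-1 tumours had 879, 2133, 1049, 2162 and 2777 normalised counts, against 8078, 6613, 4291, 15583 and 8188 in anti-PD-1 tumours. Again the groups did not overlap. The log2 difference was −2.25 (SE 0.36, 95% interval −3.01 to −1.50, adjusted p = 0.00242), and it passed under every alternative tried. Averaged over both antibody arms, Rgs2 was 4.16-fold lower with letrozole (log2 −2.06, 95% interval −2.59 to −1.52, adjusted p = 5.02e-05), and all 10 letrozole-treated tumours lay below all 10 others. In that averaged comparison, 0.257% of genes were lower without overlap.

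The antibody comparisons gave smaller differences for Rgs2. Letrozole + anti-PD-1 against letrozole gave a log2 difference of −0.46 (95% interval −1.21 to 0.30, adjusted p = 1), and anti-PD-1 against vehicle gave −0.06, described only. The effect of letrozole on Rgs2 differed between antibody arms by −0.40 (95% interval −1.46 to 0.67, adjusted p = 1.00), so a difference between arms was not detected. The 4 Rgs2 transcripts with at least 10% of the kept total gave log2 differences of −1.97 to −1.86 for letrozole against vehicle and −2.26 to −2.23 for letrozole + anti-PD-1 against anti-PD-1. Skeletal muscle markers were high in some letrozole-treated tumours, with summed normalised counts over 8 genes of 31.3 to 2082 in letrozole + anti-PD-1, 40.6 to 1697 in letrozole, 23.8 to 222 in anti-PD-1 and 28.4 to 70.2 in vehicle tumours. In letrozole replicates 1 to 5 the muscle sums were 1697, 40.6, 41.2, 1106 and 957. Rgs2 had 1284, 1524, 2791, 2602 and 4040 normalised counts in these tumours, in the same order. The part of muscle in the Rgs2 values was not tested. No stretch of 31 bases of the Rgs2 transcript occurs in another gene, and no other gene overlaps its exons.

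Counted over the 7 genes other than Rgs1, 1 gene (Rgs2) passed the test in letrozole against vehicle, where 0.957% of all genes passed (0.549% as lower and 0.408% as higher). The same count was 1 of 7 in letrozole + anti-PD-1 against anti-PD-1, where 1.07% passed (0.595% as lower), and 1 of 7 averaged over both arms, where 7% passed (3.71% as lower and 3.29% as higher). Genes that were lower without overlap made up 1.96% of all genes in letrozole against vehicle and 1.47% in letrozole + anti-PD-1 against anti-PD-1. In letrozole + anti-PD-1 against letrozole, 0 of 8 passed by limma, edgeR and DESeq2, and 0% of all genes passed by limma, with 3.16% at an unadjusted p under 0.05 and 9 genes called by DESeq2. The smallest unadjusted p among the 8 in that comparison was 0.223, for Rgs2. Across all genes, letrozole against vehicle called 81 genes higher and 109 lower, which became 40 higher and 99 lower after median centring of the libraries.

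**Figure D2:**
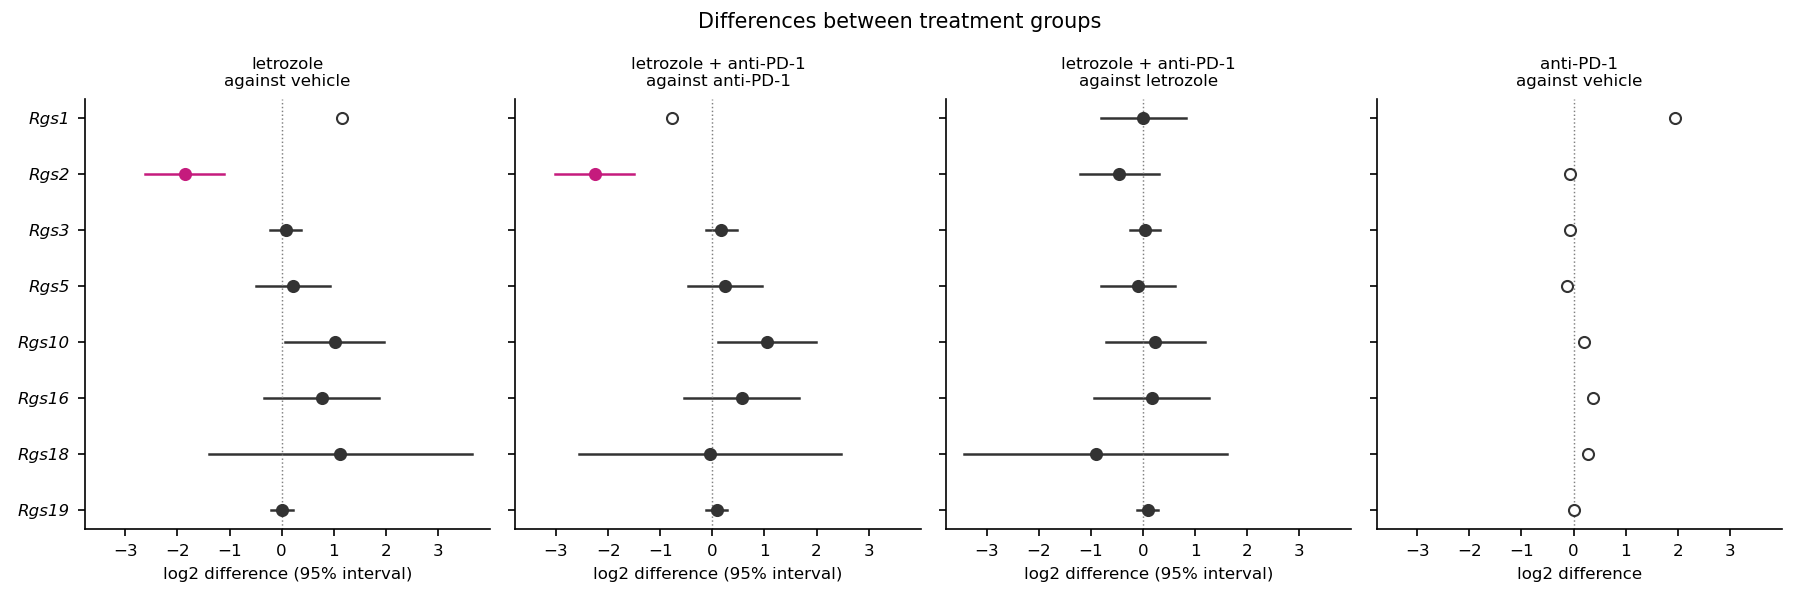
Points are log2 differences between groups (x axis) for the 8 RGS genes in 4 comparisons. Pink points passed the test and filled dark points did not, both with 95% intervals, and open points are described without a test or interval. Rgs2 is the gene in pink, at −1.86 in letrozole against vehicle and at −2.25 in letrozole + anti-PD-1 against anti-PD-1, and the intervals of Rgs3 and Rgs19 are the narrowest.

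In the plot of group differences, Rgs10 lies above 0 in both letrozole comparisons. Rgs10, a small RGS protein abundant in microglia and macrophages that acts on Gi alpha subunits, had 249, 265, 204, 316 and 446 normalised counts in letrozole tumours, against 64.1, 192, 507, 52.3 and 168 in vehicle tumours. All 5 letrozole tumours lay above 4 of the 5 vehicle tumours, and vehicle replicate 3 lay above them all, so the groups overlapped. Genes that were higher without overlap made up 1.71% of all genes in this comparison. The log2 difference was 1.01 (95% interval 0.07 to 1.96), and it did not pass (adjusted p = 0.322, unadjusted p = 0.0364). Without vehicle replicate 3 it was 1.48 and passed (adjusted p = 0.0354). It was 0.59 by edgeR (adjusted p = 0.633), 0.58 by DESeq2 (adjusted p = 0.538) and 0.66 without vehicle replicate 4 (adjusted p = 0.596).

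In antibody-treated tumours Rgs10 had 313, 495, 289, 256 and 379 normalised counts with letrozole + anti-PD-1, against 208, 71.3, 182, 194 and 215 with anti-PD-1. These groups did not overlap, as was true of 1.37% of all genes in the same direction, yet the log2 difference of 1.05 (95% interval 0.10 to 1.99) did not pass (adjusted p = 0.310, unadjusted p = 0.0312). Averaged over both arms the difference was 1.03 (0.36 to 1.70, adjusted p = 0.0562), just short of the threshold of 0.05. It passed with a minimum value of 50 in place of 10 (adjusted p = 0.0460) and without vehicle replicate 3 (1.26, adjusted p = 0.00447). It was lower and did not pass by edgeR (0.80, adjusted p = 0.134), by DESeq2 (0.79, adjusted p = 0.0611) and without vehicle replicate 4 (0.86, adjusted p = 0.0965). The 6 Rgs10 transcripts with at least 10% of the kept total gave positive differences in both arms, 0.53 to 1.22 for letrozole against vehicle and 0.97 to 1.34 for letrozole + anti-PD-1 against anti-PD-1.

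Rgs16, which is induced in activated lymphocytes and other stimulated cells, had values that ran alongside those of Rgs10. The letrozole tumours had 151, 96.5, 76.6, 139.9 and 103 normalised counts, against 22.0, 98.7, 261, 19.0 and 96.2 in vehicle tumours. The vehicle values spanned the whole letrozole range, and the log2 difference of 0.77 (95% interval −0.34 to 1.87, adjusted p = 0.545) did not pass. It was 0.19 by edgeR, 0.18 by DESeq2, 0.34 without vehicle replicate 4 and 1.27 without vehicle replicate 3, and passed in none of these. The letrozole + anti-PD-1 tumours had 93.9, 169, 98.2, 108 and 169 normalised counts, against 110.1, 34.1, 98.0, 100.2 and 107 in anti-PD-1 tumours, a log2 difference of 0.56 (−0.54 to 1.67, adjusted p = 0.684). Reads from Gm28513, which overlaps 10.1% of the Rgs16 exon bases on the opposite strand, may be counted with it, since the use of strand is not given.

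Macrophage marker levels ran alongside both genes, as did those of some other cell types. The summed normalised count of 8 macrophage markers (Adgre1, Csf1r, Cd68, Mrc1, C1qa, C1qb, C1qc and Fcgr1) ran from 3616 to 8821 in letrozole + anti-PD-1, 3934 to 9157 in letrozole, 1625 to 7114 in anti-PD-1 and 1151 to 13092 in vehicle tumours. All 8 were above 0 in every tumour, all 8 had higher means in letrozole than in vehicle tumours, and 0 passed. Vehicle replicate 3 held the highest marker sum and the highest Rgs10 and Rgs16 values of all 20 tumours. Vehicle replicate 4, anti-PD-1 replicate 2 and vehicle replicate 1 held the 3 lowest marker sums (1151, 1625 and 2199) and the 3 lowest values of both genes. Those 3 tumours also held the 3 lowest dendritic cell sums (145 to 250), endothelial sums (1249 to 2295) and fibroblast sums (2242 to 5408) of all 20. Vehicle replicate 3 also held the highest dendritic cell (888) and endothelial (5871) sums, while letrozole replicate 5 held the highest fibroblast sum (74153). T cell sums went otherwise, with the highest in letrozole + anti-PD-1 replicate 2 (640.1). The part of any of these cells in the Rgs10 and Rgs16 values was not tested.

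**Figure D3:**
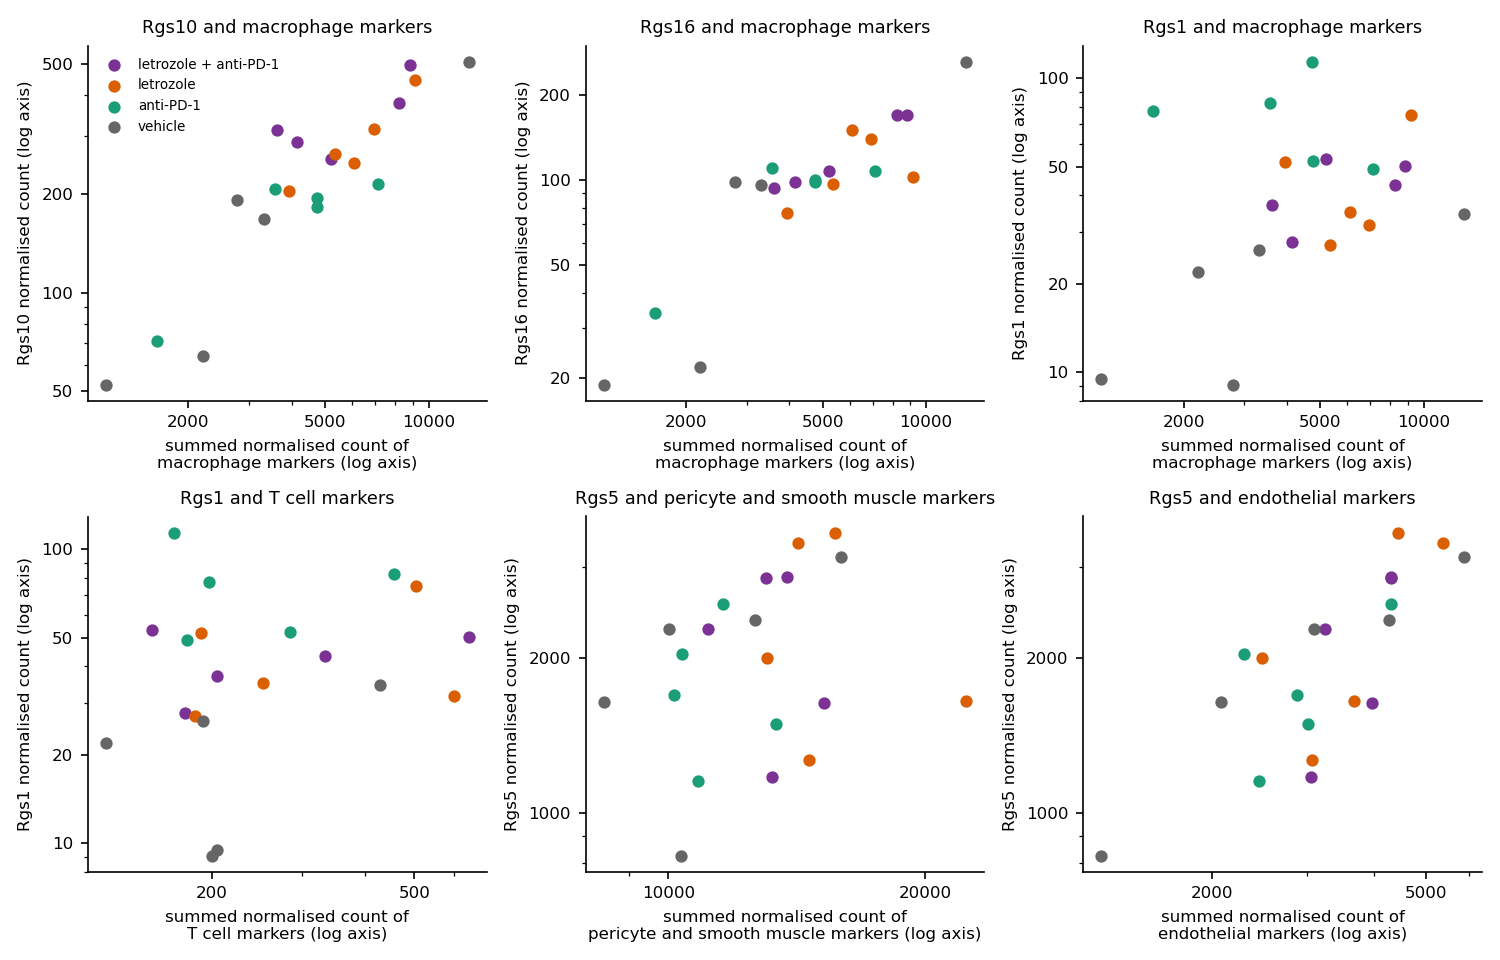
Each panel sets an RGS gene's normalised count (y axis, log scale) against the summed normalised count of a cell type's markers (x axis, log scale), with 1 point per tumour coloured by group. Rgs10 and Rgs16 are lowest in the 3 tumours with macrophage marker sums of 1151 to 2199 and highest at 13092. The highest Rgs1 value, 114, belongs to a tumour with a T cell marker sum of 168, and the highest letrozole value, 75.1, to one with 503.

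Rgs1 ran alongside these sums in some tumours and not in others. In the plot against cell type markers, the anti-PD-1 tumour with the highest Rgs1 value (114 normalised counts) had a T cell marker sum of 168, near the low end, and a macrophage marker sum of 4736. Letrozole replicate 5 had the highest Rgs1 value (75.1) and macrophage sum (9157) of its group, with a T cell sum of 503. Vehicle replicate 3 had the highest Rgs1 value (34.6), T cell sum (428) and macrophage sum (13092) of its group. T cell marker sums over 13 genes ran from 152 to 640.1 in letrozole + anti-PD-1, 185 to 599.6 in letrozole, 168 to 455 in anti-PD-1 and 124 to 428 in vehicle tumours. Of the 13, 12 were tested and 0 passed in any comparison. All 12 had higher means in letrozole than in vehicle tumours, with a median log2 difference of 1.04 against 0.03 over all genes. In anti-PD-1 against vehicle, 4 of the 12 had higher means and 8 had lower means. Cd3d and Lck were above 0 in every library, Trac and Cd4 were listed at 0 in 1 of 20 each, Cd3e in 4, Trbc1 in 8 and Trbc2 in 12. B cell markers were lower still, with sums of 20.1 to 60.7 over 7 genes, of which 1 was tested. The part of any cell type in the Rgs1 values was not tested.

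Rgs5, the pericyte and vascular smooth muscle member of the family, varied widely between tumours of every group. It had 2277, 1632, 1173, 2851 and 2873 normalised counts with letrozole + anti-PD-1 and 3500.2, 3335, 1995, 1267 and 1649 with letrozole. It had 1489, 2033, 1151, 1694 and 2546 normalised counts with anti-PD-1 and 1643, 2373, 3142, 826 and 2273 with vehicle. All 4 groups overlapped. The log2 differences were 0.22 for letrozole against vehicle (95% interval −0.50 to 0.93, adjusted p = 0.830), 0.25 for letrozole + anti-PD-1 against anti-PD-1 (−0.46 to 0.96, adjusted p = 0.798) and −0.09 for letrozole + anti-PD-1 against letrozole (−0.80 to 0.62, adjusted p = 1).

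Vessel markers varied with Rgs5 in part. The lowest Rgs5 value (826, vehicle replicate 4) came with the lowest sum of 8 endothelial markers (1249), and vehicle replicate 3, with the highest endothelial sum (5871), had the third highest Rgs5 value. Sums of 10 pericyte and smooth muscle markers ran from 11118 to 15203 in letrozole + anti-PD-1, 13045 to 22334 in letrozole, 10156 to 13388 in anti-PD-1 and 8403 to 15951 in vehicle tumours. The tumour with the highest pericyte and smooth muscle sum, letrozole replicate 5, had 1649 normalised counts of Rgs5, below the mean of its group. All 8 endothelial and 10 pericyte and smooth muscle markers were tested and 0 passed in any comparison.

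Rgs18, best known from platelets and their precursors, was at the edge of detection. It had 4.64, 44.4, 6.19, 0 and 38.7 normalised counts with letrozole + anti-PD-1, 26.3, 19.8, 17.2, 9.99 and 13.8 with letrozole, 0, 3.10, 22.1, 20.04 and 42.4 with anti-PD-1, and 1.83, 36.3, 76.8, 0 and 3.15 with vehicle. The letrozole group was the most even, and each of the other groups held a tumour at 0 and one above 40 normalised counts. Letrozole against vehicle differed by 1.13 on the log2 scale (95% interval −1.39 to 3.65, adjusted p = 0.726), and count models gave the opposite sign. Sums of 7 platelet markers ran from 169 to 272 in letrozole + anti-PD-1, 205 to 296 in letrozole, 127 to 351 in anti-PD-1 and 85.2 to 309.8 in vehicle tumours, and the 4 that were tested did not pass. At this depth no direction can be read for Rgs18.

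On the transcripts kept, Rgs3 and Rgs19 were the steadiest of the 8. Rgs19, which binds Gi alpha subunits and has been linked to vesicle traffic, had 687, 596, 719, 605 and 604 normalised counts with letrozole + anti-PD-1 and 539, 629.7, 560.4, 655 and 635 with letrozole. It had 614, 654, 533, 614 and 617 normalised counts with anti-PD-1 and 694, 618, 528, 628 and 553 with vehicle. All groups overlapped. Its log2 differences were 0.00 for letrozole against vehicle (95% interval −0.21 to 0.21, adjusted p = 0.996) and 0.08 for letrozole + anti-PD-1 against anti-PD-1 (−0.13 to 0.29, adjusted p = 0.770), so changes beyond 0.29 in either direction lie outside these intervals.

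Rgs3, a member with several long isoforms that acts on Gi and Gq, had 606, 608, 553, 607 and 545 normalised counts with letrozole + anti-PD-1 and 565, 587, 615, 494 and 586 with letrozole. It had 646, 388, 530.1, 475 and 581 normalised counts with anti-PD-1 and 554, 430.0, 706, 451 and 595 with vehicle. The groups overlapped, and the SD was 31.8 in letrozole + anti-PD-1 and 45.9 in letrozole, against 99.0 in anti-PD-1 and 112 in vehicle tumours. The log2 differences were 0.08 for letrozole against vehicle (95% interval −0.22 to 0.37, adjusted p = 0.857) and 0.18 for letrozole + anti-PD-1 against anti-PD-1 (−0.12 to 0.47, adjusted p = 0.617). Of the 31-base stretches of the Rgs3 transcript, 34.5% also occur in other genes, chiefly Gm5763, so its level is uncertain.

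In anti-PD-1 against vehicle, the contrast used to pick Rgs1, the other 7 genes are given as values without a test. Rgs16 differed by 0.37, Rgs18 by 0.27 and Rgs10 by 0.20 on the log2 scale. Rgs5 differed by −0.12, Rgs3 by −0.06 and Rgs19 by 0.01.

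For the remaining genes, letrozole + anti-PD-1 against letrozole gave log2 differences of 0.24 for Rgs10 (95% interval −0.71 to 1.18), 0.16 for Rgs16 (−0.94 to 1.27), 0.09 for Rgs19 (−0.12 to 0.30) and 0.04 for Rgs3 (−0.25 to 0.33), and −0.91 for Rgs18 (−3.43 to 1.61). All had an adjusted p of 1, and the widest intervals belong to the genes with the fewest reads or the largest spread. Averaged over both antibody arms, letrozole gave log2 differences of 0.67 for Rgs16 (95% interval −0.12 to 1.45, adjusted p = 0.304) and 0.54 for Rgs18 (−1.24 to 2.32, adjusted p = 0.754). The averaged differences were 0.23 for Rgs5 (−0.27 to 0.74, adjusted p = 0.603), 0.13 for Rgs3 (−0.08 to 0.33, adjusted p = 0.471) and 0.04 for Rgs19 (−0.11 to 0.19, adjusted p = 0.776). The interaction of letrozole and anti-PD-1 ran from −1.18 for Rgs18 to 0.10 for Rgs3 among these genes, with an adjusted p of 1.00 for each. Over all genes, 0% passed the test of this interaction by limma, and 1.98% had an unadjusted p under 0.05.

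A further 13 genes carry an Rgs name, and 6 of them stayed below the filter. Rgs13 and Rgs21, the neighbours of Rgs1 on chromosome 1, reached at most 3.83 and 1.37 normalised counts in any tumour. Rgs12 was the highest of the 13 by median, at 1030 normalised counts, then Rgs20 at 545, and Rgs4, the neighbour of Rgs5, had a median of 64.7. These and other genes of the pathway formed a list of 101 genes (other RGS-domain genes and their partners, G-protein subunits, receptor kinases and arrestins, chemoattractant receptors, adenylyl cyclases and phospholipases C beta), of which 80 were tested. Of the 80, 1 rose and 1 fell in letrozole against vehicle, 1 rose and 0 fell in letrozole + anti-PD-1 against anti-PD-1, and 3 rose and 1 fell averaged over both arms. Of all genes, 0.957%, 1.07% and 7% passed in these comparisons, so the averaged count of 4 of 80 is not above the background. The list's median log2 differences were 0.18, 0.15 and 0.19 in these comparisons, against 0.03 over all genes tested in each. In letrozole + anti-PD-1 against letrozole, 0 of the 80 passed, with a median of −0.03 against −0.01 over all genes.

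Gng12, a gamma subunit of heterotrimeric G proteins, fell in letrozole tumours, where it had 2063, 2252, 2162, 2486 and 2686 normalised counts, against 5173, 14696, 5289, 8496 and 7409.8 in vehicle tumours. These groups did not overlap, as was true of 1.96% of all genes in the same direction. The log2 difference was −1.71 (SE 0.31, 95% interval −2.35 to −1.07, adjusted p = 0.00724), which passed under all 31 alternatives. The letrozole + anti-PD-1 tumours had 1815, 2354, 2010.2, 2186 and 1973 normalised counts, against 2641, 5205, 2486, 9057 and 7919 in anti-PD-1 tumours. Here too the groups did not overlap, as was true of 1.47% of all genes in the same direction, but Gng12 did not pass in this comparison on its own. Averaged over both arms the log2 difference was −1.46 (−1.91 to −1.01, adjusted p = 3.89e-04). Among 12 tested beta and gamma subunit genes, Gng12 alone passed in any comparison. Gng12 was more even among letrozole-treated tumours than among the others on the normalised count scale.

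Akap10, an anchoring protein for protein kinase A that carries RGS domains, rose with letrozole in both arms. Its means were 1412 ± 151 normalised counts in letrozole and 994 ± 182 in vehicle tumours, a log2 difference of 0.52 (95% interval 0.28 to 0.76, adjusted p = 0.0278). They were 1358 ± 118 in letrozole + anti-PD-1 and 946 ± 53.6 in anti-PD-1 tumours, a log2 difference of 0.52 (0.28 to 0.75, adjusted p = 0.0291). The groups of antibody-treated tumours did not overlap, as was true of 1.37% of all genes in the same direction. Without the antibody the groups overlapped, with the lowest letrozole tumour (1215) below the highest vehicle tumour (1223). The call against vehicle passed in 23 of 31 alternatives, and was lost with no filter, with median centring, without letrozole replicate 1, 2, 3 or 4 and without vehicle replicate 1 or 5. The call in antibody-treated tumours passed in 24 of 31, and was lost with no filter, without letrozole + anti-PD-1 replicate 2, 4 or 5 and without anti-PD-1 replicate 2, 4 or 5. Over the alternatives, adjusted p reached 0.0995 and 0.0693, and the averaged difference of 0.52 (adjusted p = 5.37e-04) passed in all 31.

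The alpha subunits on which RGS proteins act gave small differences. Gnaz, a Gi-class alpha subunit, rose by 0.48 averaged over both arms (95% interval 0.25 to 0.71, adjusted p = 0.0116), the single call among 5 Gi-class genes tested. Gnaq, the Gq alpha subunit on which Rgs2 acts, rose by 0.26 (0.13 to 0.38, adjusted p = 0.0131), the single call among 4 Gq-class genes tested. Gnaq ran from 2076 to 2234 normalised counts in letrozole + anti-PD-1 and 2287 to 2684 in letrozole, against 1721 to 2093 in anti-PD-1 and 1692 to 2337 in vehicle tumours, so its groups overlapped. The Gnaq call was lost with each library centred on its median (adjusted p = 0.0847). Of 8 luminal epithelial markers tested, 2 rose in the same averaged comparison, Epcam at 0.52 (adjusted p = 0.00142) and Gata3 at 0.45 (adjusted p = 0.00230), with a median of 0.15 over the 8. Epcam also rose in letrozole + anti-PD-1 against anti-PD-1 (0.57, adjusted p = 0.0323). Sdc1, listed as a plasma cell marker, rose by 0.43 averaged over both arms (adjusted p = 0.0186), where the other tested plasma cell markers did not pass. The part of these cells in the pathway genes' values was not tested.

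**Figure D4:**
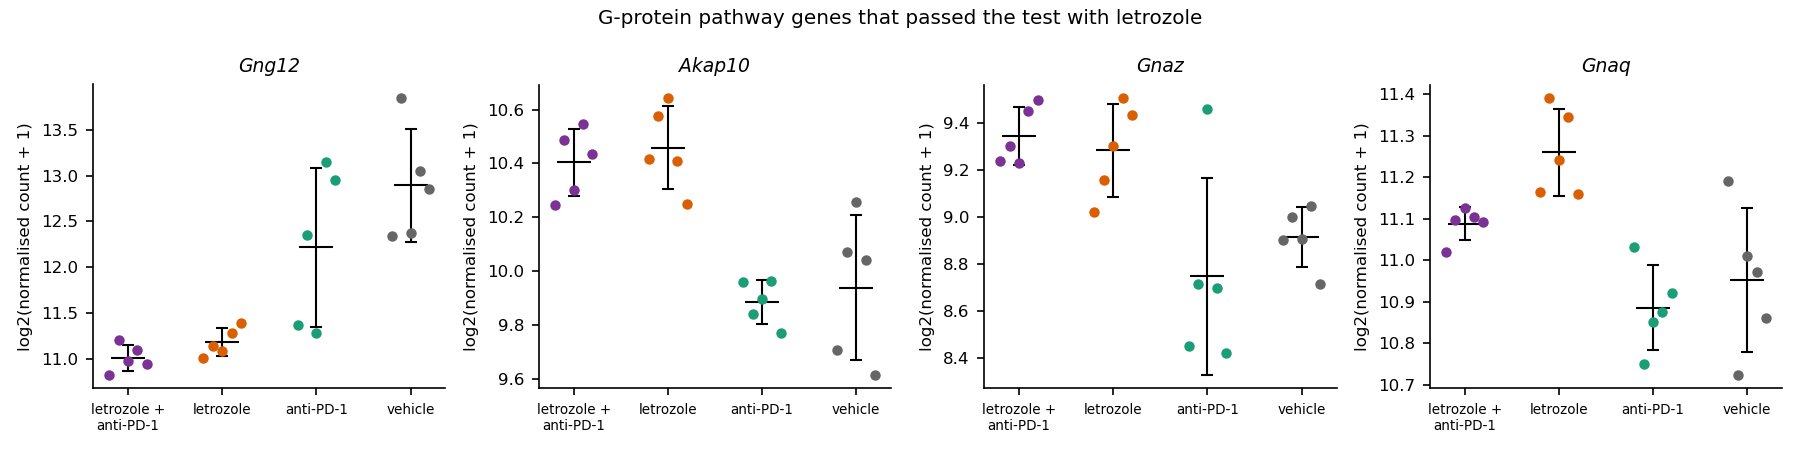
Each panel plots log2(normalised count + 1) of 1 G-protein pathway gene on the y axis, with a point per tumour for letrozole + anti-PD-1, letrozole, anti-PD-1 and vehicle from left to right, and the mean and SD of 5 tumours as bars. Gng12 is low and tightly grouped in both letrozole groups, whereas Akap10 is higher in both, and Gnaz and Gnaq are the pathway genes that passed only when both arms were averaged.

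The 22 tested chemoattractant receptors of 30, the receptor class whose signals leukocyte RGS proteins shorten, had 0 calls in each comparison. Averaged over both arms, 20 of the 22 had higher means with letrozole, with a median log2 difference of 0.76 against 0.03 over all genes, and 7 had an unadjusted p under 0.05, as did 22.9% of all genes. All 8 macrophage markers also had higher means with letrozole in this comparison, with a median of 0.76. So did 11 of 12 T cell, 6 of 6 dendritic cell, 8 of 8 endothelial and 7 of 8 fibroblast markers tested. Their medians were 1.21, 0.97, 0.48 and 0.92 in that order, while 5 of 6 mast cell markers had lower means. The part of any of these cells in these values was not tested. The plot of the 4 pathway genes that passed shows those that were called, and no adenylyl cyclase, phospholipase C beta, receptor kinase or arrestin passed in any of the tested comparisons.

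The genes whose pattern over the 20 libraries was most like that of Rgs1, by Pearson's r of log2(normalised count + 1), were Pcdhb21 (r = 0.76), Nradd (0.74), Ms4a7 (0.73), Penk (0.72), Thrb (0.72), Wnt9a (0.71), Spag6 (0.70) and Ing4 (0.69). Their Spearman's rho ran from 0.47 for Penk to 0.75 for Pcdhb21. After each group was centred on its own mean, r was 0.52 for Pcdhb21, 0.83 for Penk and 0.63 for Ms4a7. Pcdhb21 averaged 65.3 ± 26.9 normalised counts in letrozole + anti-PD-1, 49.6 ± 12.3 in letrozole, 99.4 ± 32.0 in anti-PD-1 and 41.9 ± 20.2 in vehicle tumours. Ms4a7 averaged 130.2 ± 50.3 in letrozole + anti-PD-1, 122 ± 35.5 in letrozole, 111 ± 22.9 in anti-PD-1 and 63.4 ± 40.5 in vehicle tumours, so it did not follow the group order of Rgs1. Penk averaged 20.7 ± 11.6 normalised counts in anti-PD-1 and 19.6 ± 27.5 in vehicle tumours, close to each other. These genes were ranked on the same libraries, and r is a description without a p. Of the 31-base stretches of Pcdhb21, 14.9% occur in other genes, chiefly other protocadherins, and 50.4% of those of Ing4 occur in other genes, chiefly Gm44597. Among the other RGS genes, Rgs16 had the highest r (0.31), at rank 1717 of the tested genes with predicted genes left out. After each group was centred on its own mean, Rgs2 had the highest r of them (0.56), then Rgs3 (0.48).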

How the data were processed

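RNA was extracted from 20 tumours and made into libraries with a Swift Rapid kit, per the labels' protocols. STAR 2.7.10a, DESeq2 and GRCm39 (mm39) are named per the submitters' processing notes, without their roles; read counter, annotation and strand setting: not given in the sources used here. A deposited table gives, for 127442 Ensembl transcripts, a signal per library: the authors' reads after division by that library's size factor. Undoing the division gave whole reads for 100% of values at a tolerance of 0.001. These recovered reads, used by edgeR and DESeq2, may count both mates of a pair.

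GENCODE vM21 (GRCm38) named 118889 transcripts (93.3%). Unnamed transcripts held 1.79% to 2.76% of reads, and 49 symbols shared between genes were dropped. Each gene was represented by its transcript with the highest total. Main tests used limma 3.58.1 with a trend on log2(normalised count + 1) for the 19844 genes reaching a normalised count of 10 in 5 or more libraries, all 20 libraries in a single fit with 16 residual degrees of freedom. Two-sided p-values were adjusted over all genes tested in each contrast by the Benjamini-Hochberg method, at a threshold of 0.05. Fold changes are on that log2 scale and understate changes of low genes, and intervals are at 95%. On recovered reads, edgeR 4.0.16 called 166 genes and DESeq2 1.42.0 called 622 in letrozole against vehicle, 189 and 521 in letrozole + anti-PD-1 against anti-PD-1, and 1296 and 1966 averaged over both arms, where limma called 190, 213 and 1389. The scripts were tested on simulated data.

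All 8 RGS genes are named. Genes of the pathway and marker lists are named where they passed, up to 6 per contrast, and 8 genes most like Rgs1 are named with predicted genes left out. Of the macrophage markers, 1 is not reported here and was left out of its list. The members and lists were chosen with earlier results of these data known. Alternatives were pseudocounts of 0.5 and 5, no filter, a minimum of 50, median centring, a replicate block, both count tools, the sum over transcripts, leaving out each library, and leaving out vehicle replicate 3 and anti-PD-1 replicate 1 together. The highest protein-coding transcript was added after seeing the data. Sequences came from RefSeq (GRCm38.p6), and uniqueness was checked with 31-base stretches of GENCODE vM21 transcripts. P-values set a group difference against the spread between these tumours, which all came from a single cell line.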

Additional observations from a re-analysis of the deposited data

Results flagged for a closer look

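Among 32 sets of 5 tumours (8 genes in 4 groups), 3 held a tumour whose gap to its nearest neighbour, divided by the range of the set, was above the limit of 0.71 for 5 values. Chance flags about 1 set in 20. Rgs2 in vehicle replicate 1 was the highest of its group (14103 normalised counts, gap over range 0.828). Rgs10 in anti-PD-1 replicate 2 was the lowest of its group (71.3 normalised counts, gap over range 0.774), and Rgs16 in the same tumour was the lowest of its group (34.1 normalised counts, gap over range 0.841). That tumour also had the lowest macrophage (1625), dendritic cell (250), endothelial (2295) and fibroblast (5408) marker sums of its group. The part of these cells in these values was not tested.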

How the results depend on the processing

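Over 34 results and up to 31 alternatives each, 1051 comparisons were made, of which 40 turned a gene's direction. Rgs10 gained a call in 5 and Rgs2 lost a call in 1. The count of RGS genes called in letrozole against vehicle was 1. It was 0 to 2 with a library left out, with 0 without vehicle replicate 1, and 2 without vehicle replicate 3 and without the 2 libraries that stand apart. Averaged over both arms the count was 1. It was 1 to 2 with a library left out, and 2 with a minimum of 50 and without the 2 libraries. The added genes called are Rgs10 in each case; without both libraries its adjusted p was 0.0329 in letrozole against vehicle and 0.00475 averaged. In the other comparisons the counts stayed at 1 and 0.

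Rgs1 in letrozole + anti-PD-1 against letrozole, 0.01 as reported, was −0.0559 by edgeR, −0.0538 by DESeq2, −0.104 summed over transcripts and −0.0523 on the protein-coding transcript (chosen after seeing the data), and −0.14 to 0.22 with a library left out. Rgs18 turned by edgeR and DESeq2 to −0.42 and −0.44 in letrozole against vehicle, 0.0517 and 0.0685 in letrozole + anti-PD-1 against anti-PD-1, 0.102 and 0.104 in letrozole + anti-PD-1 against letrozole, and −0.18 by both averaged. Rgs19 in letrozole against vehicle turned to −0.0691 with centring, −0.0159 by edgeR, −0.0143 by DESeq2 and −0.0453 without the 2 libraries, and averaged to −0.000198 with centring. With a library left out, signs also turned for Rgs3 (−0.00307 to 0.175), Rgs5 (−0.0788 to 0.411) and Rgs19 (−0.0453 to 0.0532) in letrozole against vehicle, for Rgs18 (−0.87 to 0.76) in letrozole + anti-PD-1 against anti-PD-1, and for Rgs3 (−0.0121 to 0.0669) and Rgs5 (−0.28 to 0.11) in letrozole + anti-PD-1 against letrozole. None of these was called under any alternative, and the cause was not tested.

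No strong pairing of tumours by replicate number was seen: over 30 pairs, r of same-numbered deviations ran from −0.344 to 0.196, with 3 above 0.1. These values cannot show that the numbers carry no pairing. With a replicate block, Rgs2 was at −1.86 in letrozole against vehicle, and no call of the 8 genes changed. Genes called overall in letrozole against vehicle, 190 as reported, were 622 by DESeq2, 126 with no filter, 1131 without the 2 libraries, and 85 to 814 with a library left out. In letrozole + anti-PD-1 against anti-PD-1, 213 became 521 by DESeq2, 110 with no filter and 72 to 263 with a library left out. Averaged, 1389 became 2469 without the 2 libraries and 936 to 2336 with a library left out. Read numbers limit Rgs1 (8 to 91 per library) and Rgs18 (0 to 82).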
